A study of Mus musculus with 88 samples.

Results

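Matrix metalloproteinases are zinc enzymes that cut the proteins of the extracellular matrix, and the tissue inhibitors of metalloproteinases, or TIMPs, bind them and block their active site. Of 10 genes considered, 6 encode proteases (Mmp2, Mmp3, Mmp8, Mmp9, Mmp12 and Mmp14) and 4 encode inhibitors (Timp1, Timp2, Timp3 and Timp4). Their members were the probe sets that the platform annotation pairs with 1 of these symbols and no other, which gave 15 of the 12488 probe sets on the array, for 9 of the 10 genes (8251 genes had such a probe set in all). Timp4 had no such probe set in the annotation used and was not analysed here. Where a gene had several probe sets, the one with the highest mean over all arrays is described first and is called its main probe set.

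RNA came from whole mouse hearts, and every heart had an Affymetrix expression array to itself, 88 in all. The dKO mice carried SR-BI-/- apoE-/-, so they lacked both the high-density lipoprotein receptor SR-BI, encoded by Scarb1, and apolipoprotein E. The HET controls carried SR-BI+/- apoE-/-, so all mice in the study lacked apolipoprotein E and no wild-type heart was compared. On chow there were 10, 10 and 12 dKO mice against 9, 10 and 9 HET mice, aged 21, 31 and 43 days. Probucol, a cholesterol-lowering antioxidant drug given in the diet, was received by 6, 8 and 6 dKO mice and by 3, 3 and 2 HET mice at those ages. Its dose and starting age, and the strain and sex of the mice, are not given in the sources used here. By the design text, dKO mice have no detectable coronary disease at 21 days, small infarcts at 31 days and extensive ones at 43 days. HET mice on chow have none detectable.

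In an injured heart, proteases of this family degrade collagen, elastin and other matrix proteins, release growth factors and open the way for invading leukocytes. Most are secreted as inactive precursors, and the balance with TIMPs sets how much of the activity is free, so RNA levels give the supply of enzyme and inhibitor and not the activity. Macrophages, neutrophils and fibroblasts each make their own subset of the family. Signals below are log2 values, a difference of 1 is a doubling, errors of differences are standard errors, and adjusted p is from limma, corrected over all 10833 probe sets tested, with a threshold of 0.05. Signals under 4.22 were raised to that floor, which is 2.08 on the log2 scale.

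Members fell into 3 kinds by their levels. The main probe sets of Mmp14, Timp1, Timp2 and Timp3 lay above the floor on all 88 arrays, and that of Mmp3 was at the floor on 1 array and that of Mmp12 on 6. The main probe sets of Mmp2 and Mmp8 were at the floor on 8 arrays each and that of Mmp9 on 14, and differences from groups near the floor, HET Mmp12 included, depend on where the floor is set. Second probe sets of Mmp2, Mmp9, Timp1 and Timp2 were dimmer than the main ones of the same genes, at the floor on 24, 36, 45 and 10 arrays. A further probe set of Timp2 was at the floor on 48. Under a filter that keeps the brighter 60% of probe sets, members of 6 genes passed, those of Mmp3, Mmp12, Mmp14, Timp1, Timp2 and Timp3. The filter ranks by the mean over all arrays, so the high dKO chow hearts count towards the passing of Mmp3 and Mmp12. Their main probe sets had means of 5.16 and 5.51 over all arrays. Group means outside dKO chow hearts were at most 4.81 and 5.18.

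Arrays differed in brightness, with a median signal from 27.8 to 75.4, and the deposited scale was kept. Over all probe sets the median difference, dKO minus HET on chow, came to -0.17 at 21 days, 0.20 at 31 days and 0.17 at 43 days. For probucol minus chow in dKO hearts it came to 0.08, -0.18 and -0.25. After centring each array on its median, the share of higher probe sets among those called went from 29.3% to 75.4% at 21 days, from 86.9% to 31.1% at 31 days and from 76.8% to 35.6% at 43 days, so centred values stand beside calls that they change. Residuals also split the arrays into sets of 68 and 20, with 6 of 10 dKO chow hearts at 21 days and 6 of 10 HET chow hearts at 31 days in the smaller set, and no member probe set among the genes that define the split. The labels name no batch. Scarb1, the deleted gene, gave log2 differences of -1.58 ± 0.17, -0.75 ± 0.17 and -0.69 ± 0.16 at the successive ages on chow, all past the threshold. One label of replicate 2 among the dKO chow hearts at 21 days disagrees with the rest on age, and the heart was kept in that group.

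Mmp12 and Mmp3, which lie near each other on chromosome 9 with Mmp8, had the largest rises among the member proteases, and with Mmp14 and Timp1 they carry the results that follow. The 250 bases before their RefSeq start sites (GRCm38.p6, plus strand) are shown because these 4 genes had the largest rises among the members' main probe sets in dKO hearts at 43 days. Capitals mark the AP-1 motif TGANTCA, which reads alike on both strands, and the GC box GGGCGG on either strand. Of 2 Mmp12 start sites in the table, the one with a motif is shown, at chr9:7347124-7347373. The others are chr9:7445572-7445821 for Mmp3, chr14:54431348-54431597 for Mmp14 and chrX:20869916-20870165 for Timp1.
Mmp12: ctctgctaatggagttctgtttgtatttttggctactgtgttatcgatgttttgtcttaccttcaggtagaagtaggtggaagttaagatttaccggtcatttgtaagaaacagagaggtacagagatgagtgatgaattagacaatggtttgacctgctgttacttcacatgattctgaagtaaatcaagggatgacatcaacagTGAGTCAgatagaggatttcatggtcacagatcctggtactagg
Mmp3: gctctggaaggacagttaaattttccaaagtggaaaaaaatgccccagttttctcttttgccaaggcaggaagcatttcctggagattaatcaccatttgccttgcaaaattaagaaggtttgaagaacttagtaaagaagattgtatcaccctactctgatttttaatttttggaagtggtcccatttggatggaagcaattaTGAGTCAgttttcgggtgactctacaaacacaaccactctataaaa
Mmp14: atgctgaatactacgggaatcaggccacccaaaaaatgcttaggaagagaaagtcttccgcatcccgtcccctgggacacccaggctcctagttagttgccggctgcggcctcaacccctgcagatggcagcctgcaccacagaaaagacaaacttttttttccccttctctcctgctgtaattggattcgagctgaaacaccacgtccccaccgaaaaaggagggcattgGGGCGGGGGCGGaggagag
Timp1: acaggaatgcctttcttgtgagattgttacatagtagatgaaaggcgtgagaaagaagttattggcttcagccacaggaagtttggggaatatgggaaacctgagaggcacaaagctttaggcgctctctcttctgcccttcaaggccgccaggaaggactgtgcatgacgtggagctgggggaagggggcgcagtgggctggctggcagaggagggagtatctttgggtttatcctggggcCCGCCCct
The AP-1 motif stood 44 bases before the Mmp12 start and 46 bases before the Mmp3 start, and 6.75% of all 32851 promoters of this length hold it. Neither the other Mmp12 window nor those of Mmp8, Mmp14, Timp1, Timp2, Timp3 and Timp4 hold these letters. A GC box was present before Mmp14, Timp1, Timp2 and Timp3 and is held by 32.7% of all promoters, while the Mmp3, Mmp8, Mmp12 and Timp4 windows had none. The table matched 8 of the 10 genes. These are matches of letters in a window, and binding was not measured.

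Mmp12, the macrophage elastase, was the 1 member that differed between the genotypes at 21 days, the age with no detectable coronary disease. In dKO hearts on chow at 21 days its log2 signal ran from 4.01 through a median of 5.91 to 6.99, and in HET hearts from the floor of 2.08 through 2.87 to 5.05. Of the 10 dKO hearts, 8 lay above all 9 HET hearts, and the ranges overlapped. The difference was 2.59 ± 0.48 (adjusted p = 3.08e-04), or 6.03-fold with 2 of 9 HET hearts at the floor, and it was 2.18 within the larger array set (4 and 7 hearts) and 3.64 within the smaller one (6 and 2 hearts). The second Mmp12 probe set differed by 1.34 ± 0.32 (adjusted p = 0.0127), which became 0.0684 when only the groups compared were fitted. Of 12 macrophage markers, 4 were higher in dKO hearts at this age and 0 lower, where 0.406% of all probe sets rose. After median centring 8 were higher, where 212 of all 10833 probe sets rose. The 4, named after their values were seen, were Cd68 (1.12 ± 0.16), Mpeg1 (1.10 ± 0.18), Lgals3 (1.95 ± 0.36) and Tyrobp (0.72 ± 0.17). The median difference of the 12 was 0.34. Adgre1 was not called and went the other way, with means of 4.09 in dKO and 4.68 in HET hearts. The part of these markers in the Mmp12 difference was not tested. In whole-heart RNA, more cells of a type and more RNA per cell cannot be told apart.

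Mmp12 then rose further with age in dKO hearts, and in HET hearts neither age step passed. At 31 days the dKO chow group lay between 7.61 and 9.59 with a median of 8.69, and the HET chow group between 2.08 and 5.56 with a median of 2.43. At 43 days the dKO range was 9.62 to 11.11 around a median of 10.48, and the HET range 2.08 to 6.06 around 4.58. The genotypes did not overlap at either age. The differences were 5.44 ± 0.47 (adjusted p = 1.49e-16) and 6.48 ± 0.46 (adjusted p = 8.43e-22). These are 43.3-fold and 89.3-fold as fitted, with 2 of 10 and 1 of 9 HET hearts at the floor, so the folds are set in part by the floor. Within the larger array set the log2 differences were 4.52 and 5.79. The second probe set gave 3.93 ± 0.31 and 4.97 ± 0.30, so the 2 probe sets placed the change at different sizes and in the same direction.

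Probucol lowered Mmp12 in dKO hearts at the later ages. Treated dKO hearts lay between 2.12 and 5.23 with a median of 4.16 at 21 days, between 2.49 and 5.63 with a median of 4.14 at 31 days, and between 2.60 and 5.80 with a median of 4.74 at 43 days. At 31 and 43 days every treated heart lay below every dKO chow heart of its age. Against dKO hearts on chow the differences were -4.32 ± 0.49 (adjusted p = 5.60e-11) and -5.83 ± 0.52 (adjusted p = 2.05e-16). At 21 days the difference of -2.03 ± 0.54 did not pass (adjusted p = 0.122), but did after median centring (-2.18, adjusted p = 0.0245), and 3 of 6 treated hearts lay below all dKO chow hearts. Against HET hearts on chow, treated dKO hearts differed by 0.56 (95% interval -0.53 to 1.65), 1.11 (0.13 to 2.09) and 0.65 (-0.44 to 1.74), and none of these passed.

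**Figure D1:**
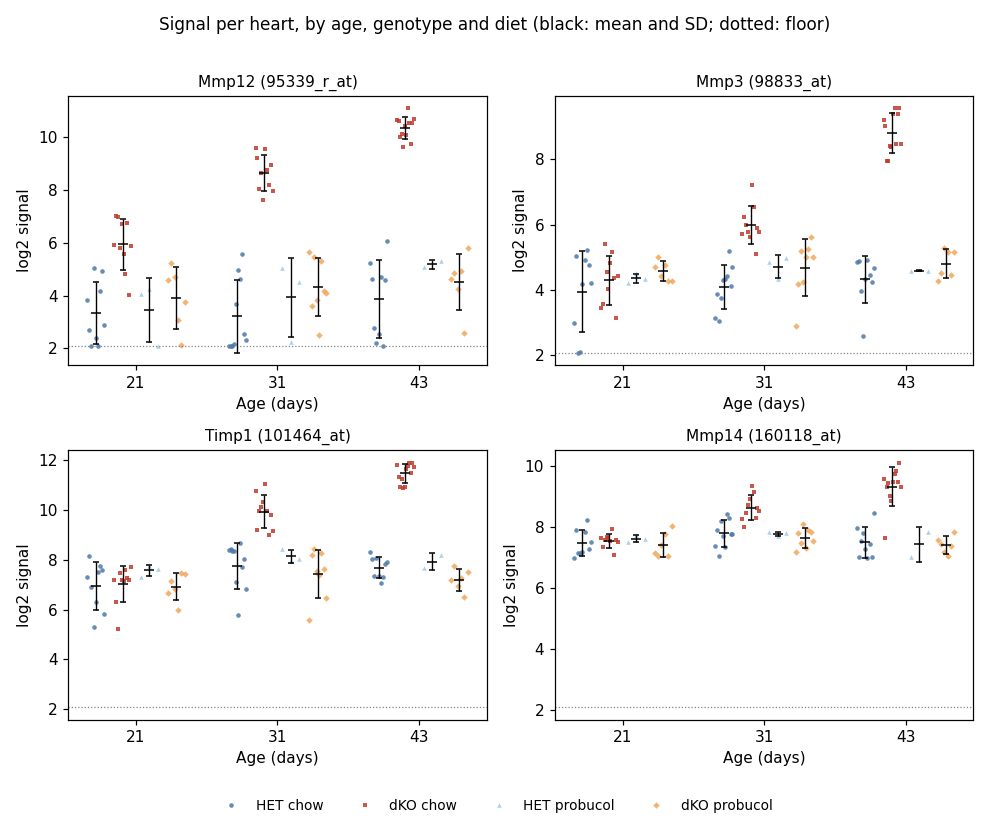
Log2 signal of the main probe sets of Mmp12, Mmp3, Timp1 and Mmp14 in each of the 88 hearts (points) against age in days, by genotype and diet, with the mean and SD of each group in black and the floor of 2.08 dotted. The dKO chow hearts stand apart at 31 and 43 days for Mmp12 and Timp1 and at 43 days for Mmp3, and dKO hearts on probucol lie below all dKO chow hearts of their age for Mmp12 and Timp1 at 31 and 43 days.

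Mmp3, or stromelysin-1, cuts proteoglycans and fibronectin and activates other metalloproteinases. It passed between the genotypes at 31 and 43 days and not at 21 days; whether its difference at 21 days differs from that of Mmp12 was not tested. In dKO chow hearts its lowest, median and highest log2 signals were 3.14, 4.40 and 5.41 at 21 days, 5.11, 5.83 and 7.23 at 31 days and 7.94, 8.74 and 9.59 at 43 days. In HET chow hearts they were 2.08, 4.23 and 5.21, then 3.04, 4.22 and 5.19, then 2.58, 4.46 and 4.91. Genotypes overlapped at 21 days, 9 of 10 dKO hearts lay above all HET hearts at 31 days, and all 12 did at 43 days. The differences were 0.35 ± 0.33 (adjusted p = 0.616), 1.90 ± 0.32 (adjusted p = 4.57e-06) and 4.49 ± 0.32 (adjusted p = 7.39e-22), the last being 22.4-fold.

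The step of Mmp3 between 31 and 43 days in dKO hearts was 2.82 ± 0.31 (adjusted p = 1.11e-11), and the 2 ages did not overlap. The same step in HET hearts was 0.23 ± 0.33, and the difference between the steps was 2.59 ± 0.45 (adjusted p = 2.82e-05). For Mmp12 that difference of steps was 1.04 ± 0.65 and did not pass (adjusted p = 0.443), but it passed with the floor at the 30th percentile (1.44, adjusted p = 0.0106). The second Mmp12 probe set gave 1.04 (adjusted p = 0.169), and it passed with quantile normalization, the higher floor, array weights and the array set as a block, with or without centring (1.10 to 1.28, adjusted p from 0.0113 to 0.0426). Between 21 and 31 days the genotype difference of Mmp12 grew by 2.84 ± 0.67 (adjusted p = 0.00284) and that of Mmp3 by 1.55 ± 0.46 (adjusted p = 0.0167). With the array set as a block these were 2.00 (adjusted p = 0.142) and 0.79 (adjusted p = 0.416), so the early growth did not pass there for either main probe set. For Mmp3 it also did not pass after median centring (1.02, adjusted p = 0.086) or quantile normalization (0.73, adjusted p = 0.309). With probucol, dKO hearts had Mmp3 from 2.89 to 5.64 at 31 days and from 4.27 to 5.27 at 43 days, which was lower than on chow by 1.32 ± 0.34 (adjusted p = 0.00271) and by 4.01 ± 0.36 (adjusted p = 2.61e-16).

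Mmp14 is a membrane-bound protease that cuts collagen at the cell surface and activates the precursor of Mmp2. Its lowest, median and highest signals in dKO chow hearts were 7.07, 7.56 and 7.93 at 21 days, 8.01, 8.57 and 9.35 at 31 days and 7.62, 9.47 and 10.12 at 43 days. In HET chow hearts they were 6.99, 7.28 and 8.22, then 7.06, 7.76 and 8.44, then 6.98, 7.45 and 8.45. At 43 days 11 of 12 dKO hearts lay above every HET heart, and replicate 2 was the exception at 7.62. The genotype differences were 0.08 ± 0.19, 0.84 ± 0.19 (adjusted p = 4.92e-04) and 1.82 ± 0.18 (adjusted p = 2.73e-14), or 1.06-fold, 1.79-fold and 3.54-fold. Treated dKO hearts lay between 7.16 and 8.11 at 31 days and between 7.04 and 7.84 at 43 days. Probucol lowered Mmp14 in dKO hearts by 0.99 ± 0.20 (adjusted p = 7.53e-05) and by 1.91 ± 0.21 (adjusted p = 1.04e-12) at these ages.

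The gelatinases Mmp2 and Mmp9 degrade denatured collagen and basement membrane. Mmp9, which neutrophils store and macrophages make, lay near the floor in most groups: the medians of HET chow hearts were 2.29, 2.60 and 2.86 at the successive ages, and those of dKO chow hearts were 2.08, 2.83 and 3.99. At 43 days dKO chow hearts were higher than HET hearts by 1.33 ± 0.34 (adjusted p = 8.29e-04), and 4 of 12 lay above the highest HET heart at 5.64. The second Mmp9 probe set rose by 0.98 ± 0.30 (adjusted p = 0.00565), which did not pass after median centring (0.64, adjusted p = 0.0622). Treated dKO hearts at 43 days lay between 2.67 and 3.22, below every dKO chow heart, with a difference of -1.69 ± 0.38 (adjusted p = 2.14e-04).

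The 12 dKO chow hearts at 43 days fell into separated values for the main Mmp9 probe set. Replicates 1, 8, 10 and 11 had 6.66, 6.15, 6.14 and 6.76, and the other 8 lay between 3.39 and 4.13. The second Mmp9 probe set did not separate them, with 3.51 to 4.45 in these 4 hearts and 2.29 to 4.21 in the rest. These 4 hearts also had the 4 highest Mmp8 signals of the group, at 5.07, 4.72, 4.86 and 4.46, where the other 8 reached 4.19 at most. Their S100a8, a calcium-binding protein abundant in neutrophils that was chosen after its values were seen, was 8.36, 9.97, 8.80 and 8.84, against 7.41 to 8.52 in the rest. These ranges overlap, as did those of other neutrophil genes: S100a9 lay between 7.83 and 9.11 in the 4 hearts and between 6.47 and 8.15 in the rest, Csf3r between 8.50 and 9.62 against 6.86 to 8.92, Camp between 5.99 and 6.84 against 5.69 to 6.28, and Ngp between 4.15 and 4.51 against 3.16 to 4.5. Their Mmp3 signals were 9.21, 9.57, 9.40 and 9.59, against 7.94 to 9.38 in the rest, and these ranges overlap too. Their Timp1 signals, from 11.48 to 11.89, lay inside the range of the others, from 10.89 to 11.90. Array medians were 55.7, 62.9, 69.8 and 75.4 in those 4 hearts and 46.9 to 64.7 in the others, and the part of brightness in this pattern was not tested.

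**Figure D2:**
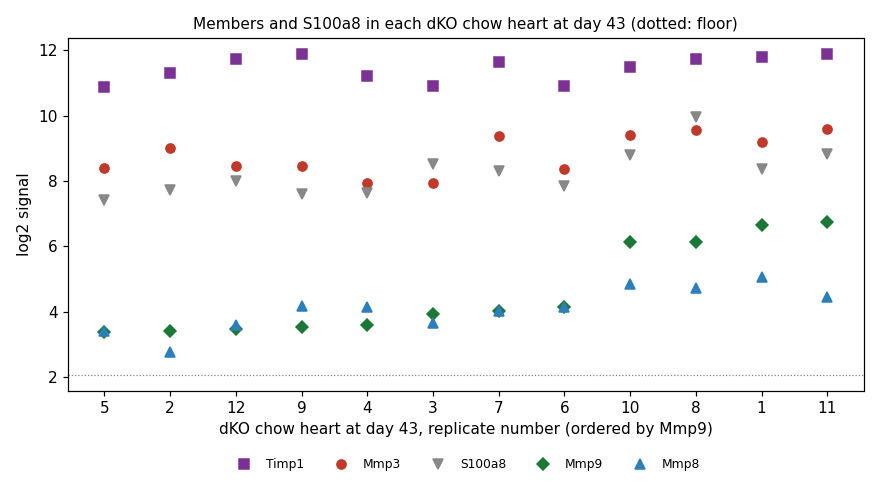
Log2 signal of Timp1, Mmp3, S100a8, Mmp9 and Mmp8 (symbols) in each dKO chow heart at 43 days, with hearts ordered by Mmp9 and named by replicate number, and the floor of 2.08 dotted. Replicates 10, 8, 1 and 11 have Mmp9 (main probe set) between 6.14 and 6.76 and the highest Mmp8 signals, while Timp1 is high in all 12 hearts. The second Mmp9 probe set, which does not separate these hearts, is not shown.

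Mmp8, the collagenase of neutrophils, and Mmp2, made by fibroblasts and other stromal cells, did not pass between the genotypes at any age in the main fit. Mmp8 in dKO chow hearts had medians of 2.54, 3.52 and 4.14 at the successive ages, against 3.08, 3.26 and 3.37 in HET hearts, and the groups overlapped at each age. Its difference at 43 days was 0.76 (95% interval 0.12 to 1.39, adjusted p = 0.0575). This difference passed in limma with no floor (0.95, adjusted p = 0.0363) and with array weights (1.05, adjusted p = 0.00216). Within the larger array set it was 0.26. Mmp2 in dKO chow hearts had medians of 2.71, 3.73 and 4.27, against 3.94, 3.19 and 4.24 in HET hearts, and differed at 43 days by -0.67 (95% interval -1.51 to 0.17, adjusted p = 0.231). After median centring that difference was -1.02 (adjusted p = 0.0359). The second Mmp2 probe set differed between genotypes at 31 days by 0.97 and did not pass (adjusted p = 0.114), but did with array weights (1.21, adjusted p = 0.0218). At 43 days it went the other way from the main probe set. Its means were 3.47 in dKO and 3.15 in HET chow hearts, and it did not pass.

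Timp1 is the secreted inhibitor that injured tissue induces, and its rise was the largest among the inhibitors. In dKO chow hearts its lowest, median and highest signals were 5.22, 7.20 and 7.72 at 21 days, 9.00, 9.94 and 11.02 at 31 days and 10.89, 11.56 and 11.90 at 43 days. In HET chow hearts they were 5.29, 7.31 and 8.15, then 5.77, 8.18 and 8.68, then 7.05, 7.84 and 8.29. The genotypes overlapped at 21 days and not at 31 or 43 days. The differences were 0.07 (95% interval -0.53 to 0.68), 2.17 ± 0.30 (adjusted p = 1.95e-08) and 3.77 ± 0.29 (adjusted p = 1.20e-19), or 1.05-fold, 4.5-fold and 13.7-fold. Within the larger array set the later values were 3.09 and 3.72. At 21 days Timp1 thus did not pass where Mmp12 did; whether these 2 differences differ was not tested.

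Probucol lowered Timp1 in dKO hearts by 2.49 ± 0.31 (adjusted p = 1.54e-09) at 31 days and by 4.27 ± 0.33 (adjusted p = 2.64e-19) at 43 days. Treated dKO hearts lay between 5.60 and 8.42 at 31 days and between 6.51 and 7.75 at 43 days, below every dKO chow heart of the same age. They differed from HET chow hearts by -0.32 (95% interval -0.95 to 0.30) and -0.50 (-1.20 to 0.19). The second Timp1 probe set, at the floor in 45 arrays, passed in no comparison and had group means between 2.14 and 4.02.

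Timp2 both inhibits metalloproteinases and, bound to Mmp14, helps to activate Mmp2. Its main probe set in dKO chow hearts had medians of 7.04, 7.87 and 8.28, against 6.85, 6.95 and 7.07 in HET hearts, and the genotypes overlapped at every age. At 31 days the difference was 0.81 ± 0.21 (adjusted p = 0.00264), and at 43 days 0.86 ± 0.20 (adjusted p = 3.28e-04), or 1.76-fold and 1.82-fold. The second probe set rose by 0.95 ± 0.33 (adjusted p = 0.0358) and 1.39 ± 0.33 (adjusted p = 3.37e-04), and the first of these did not pass after median centring (0.63, adjusted p = 0.149). Replicate 2 of the dKO chow hearts at 43 days, the heart with the lowest Mmp14, also had the lowest Timp2, at 6.06. It had the lowest Mmp8 too, at 2.77, and the lowest array median of the group, at 46.9. The part of brightness in these low values was not tested. With probucol the main probe set was lower than on chow at 43 days by 0.87 ± 0.23 (adjusted p = 0.00163), and after median centring by 0.48 (adjusted p = 0.0675).

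Timp3, which is held in the matrix and also blocks ADAM proteases, did not pass between the genotypes on chow at any age. Its medians in dKO chow hearts were 9.31, 9.64 and 9.92, and in HET chow hearts 9.59, 9.53 and 9.84. The differences were -0.24 (95% interval -0.55 to 0.07), 0.10 (-0.20 to 0.40) and 0.05 (-0.24 to 0.35). With probucol at 31 days Timp3 was lower in dKO hearts by 0.45 ± 0.16 (adjusted p = 0.0399), and after median centring by 0.20 (adjusted p = 0.506). Treated dKO hearts lay between 8.45 and 9.63 at that age and overlapped the chow hearts, which lay between 8.75 and 10.36.

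**Figure D3:**
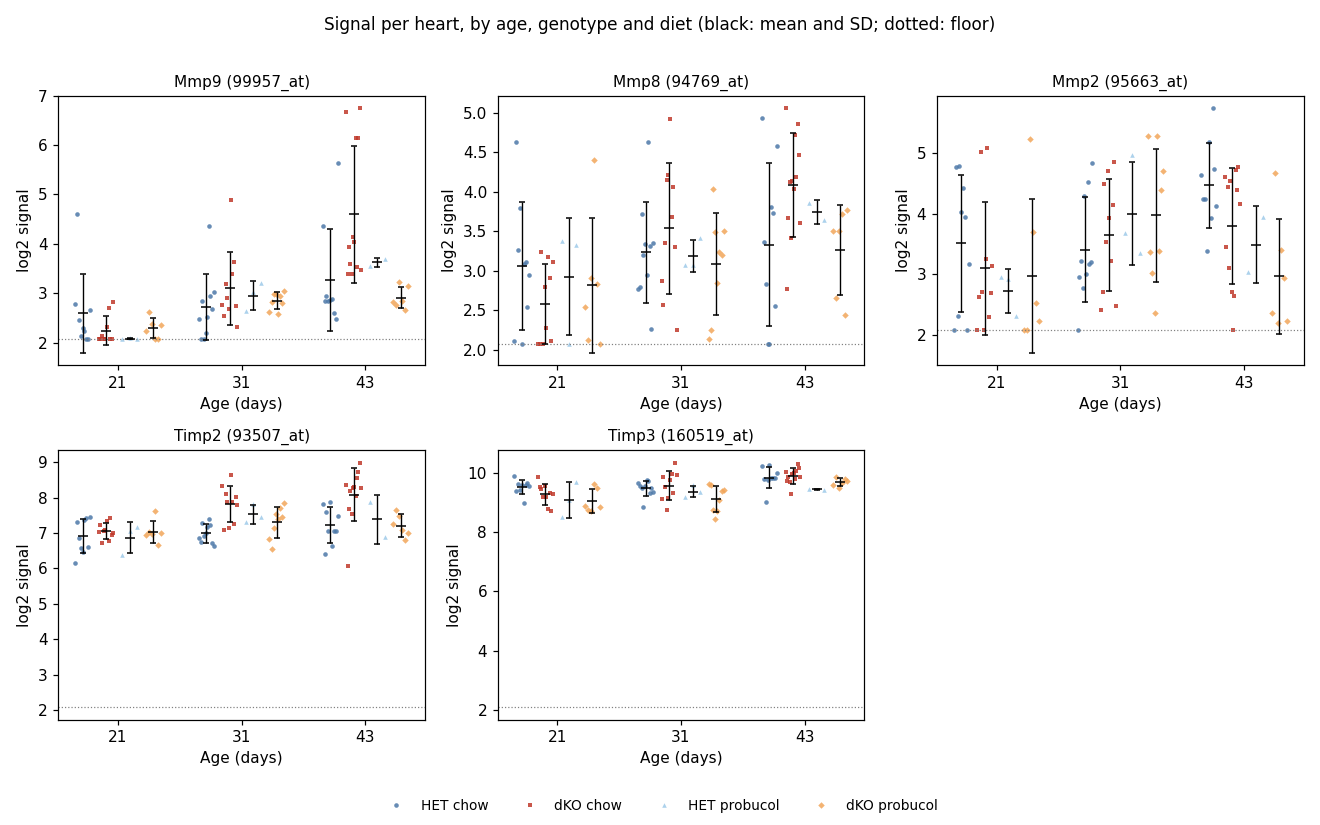
Log2 signal of the main probe sets of Mmp9, Mmp8, Mmp2, Timp2 and Timp3 in each of the 88 hearts (points) against age in days, by genotype and diet, with the mean and SD of each group in black and the floor of 2.08 dotted. Mmp9 reaches 6.76 in the dKO chow group at 43 days, Mmp8 and Mmp2 scatter close to the floor, and Timp3 stays between 8.45 and 10.36 in all groups.

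Counted over the 15 member probe sets, the genotypes on chow differed in more members with age, and all calls were higher in dKO hearts. At 21 days 2 probe sets rose and 0 fell, where 0.406% of all probe sets rose and 0.978% fell. At 31 days 7 rose, against 14.2% of all probe sets, and 0 fell, against 2.15%. At 43 days 9 rose, against 25.5%, and 0 fell, against 7.69%. By main probe set these were 1, 5 and 6 of 9 genes: Mmp12 first, then Mmp3, Mmp14, Timp1 and Timp2, then Mmp9. The median difference of the 9 main probe sets was 0.07, 0.81 and 1.33 at the 3 ages.

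Members passed between ages in dKO hearts on chow and not in HET hearts. In dKO chow hearts 10 member probe sets rose from 21 to 31 days, but so did 47.9% of all probe sets (0.591% fell). After median centring 611 of all 10833 probe sets rose and 1937 fell, and 5 of the 10 member probe sets passed. Those that did not were Mmp8 (0.95, centred 0.30, adjusted p = 0.462), Mmp9 (0.86, centred 0.21, adjusted p = 0.657), both called Timp2 probe sets (0.75 and 1.01, centred 0.09 and 0.35, adjusted p = 0.758 and 0.444) and the second Mmp2 probe set (1.23, centred 0.58, adjusted p = 0.269). From 31 to 43 days 7 rose, against 11.4%, and 0 fell, against 3.05%. In HET chow hearts 0 of 15 passed in limma at either step, with 1 and 2 at an unadjusted p under 0.05, where 8.37% and 0.203% of all probe sets changed. The growth of the genotype difference passed as a rise for 5 member probe sets between 21 and 31 days, against 13% of all probe sets. After median centring 3 passed, where 404 of all 10833 probe sets rose and 1164 fell. Mmp14 then went from 0.76 to 0.23 (adjusted p = 0.487), and Mmp3 did not pass either. Between 31 and 43 days the growth passed for 3, against 4.02%. The last 3 were those of Mmp3, Timp1 (1.60 ± 0.42, adjusted p = 0.00797) and Mmp14 (0.98 ± 0.26, adjusted p = 0.0101).

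Probucol lowered members in dKO hearts, and no member passed in HET hearts. In dKO hearts 0 of 15 probe sets passed at 21 days in limma, with the 2 of Mmp12 at an unadjusted p under 0.05, where 0.0831% of all probe sets changed. At 31 days 6 fell, against 16.2%, and 0 rose, against 1.29%, and at 43 days 8 fell, against 24.4%, and 0 rose, against 4.69%. In HET hearts 0 passed at any age in limma, with 0, 1 and 1 at an unadjusted p under 0.05, where 0.175%, 0.378% and 0.0646% of all probe sets changed. The HET probucol groups hold 3, 3 and 2 hearts, so these intervals are wide: that of Timp1 at 43 days ran from -0.79 to 1.27.

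Whether the effect of probucol differed between the genotypes was tested by an interaction term. It passed for 0 of 15 at 21 days in limma, with 1 at an unadjusted p under 0.05 and 0% of all probe sets, for 4 as a fall at 31 days, against 4.75%, and for 7 at 43 days, against 7.86%. At 43 days it was -7.15 ± 0.97 for Mmp12, -4.51 ± 0.62 for Timp1, -4.27 ± 0.67 for Mmp3, -2.04 ± 0.71 for Mmp9 and -1.84 ± 0.39 for Mmp14. The value of Mmp9 rested on 2 HET probucol hearts and did not pass without either (adjusted p = 0.161 and 0.237) or after median centring (-1.68, adjusted p = 0.0597), nor did that of Mmp14 without replicate 2 (-1.44, adjusted p = 0.0617). That of Mmp3 at 31 days, -1.94 ± 0.58 (adjusted p = 0.0352), did not pass without any of the 3 HET probucol hearts (adjusted p = 0.0905, 0.0568 and 0.125), nor after median centring (-1.47, adjusted p = 0.103).

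Treated dKO hearts were also set against the HET hearts. Against HET chow hearts 0 of 15 member probe sets passed at any age in limma, with 1, 3 and 1 at an unadjusted p under 0.05, where 0.0923%, 3.12% and 0.314% of all probe sets changed. Against HET hearts on probucol 0 passed, with 0, 0 and 1 at an unadjusted p under 0.05, where 0%, 0% and 0.0185% changed. A missed threshold does not show equal levels: the interval for Mmp2 at 43 days against HET chow hearts ran from -2.50 to -0.50 before adjustment (adjusted p = 0.182). These comparisons share the dKO probucol hearts.

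**Figure D4:**
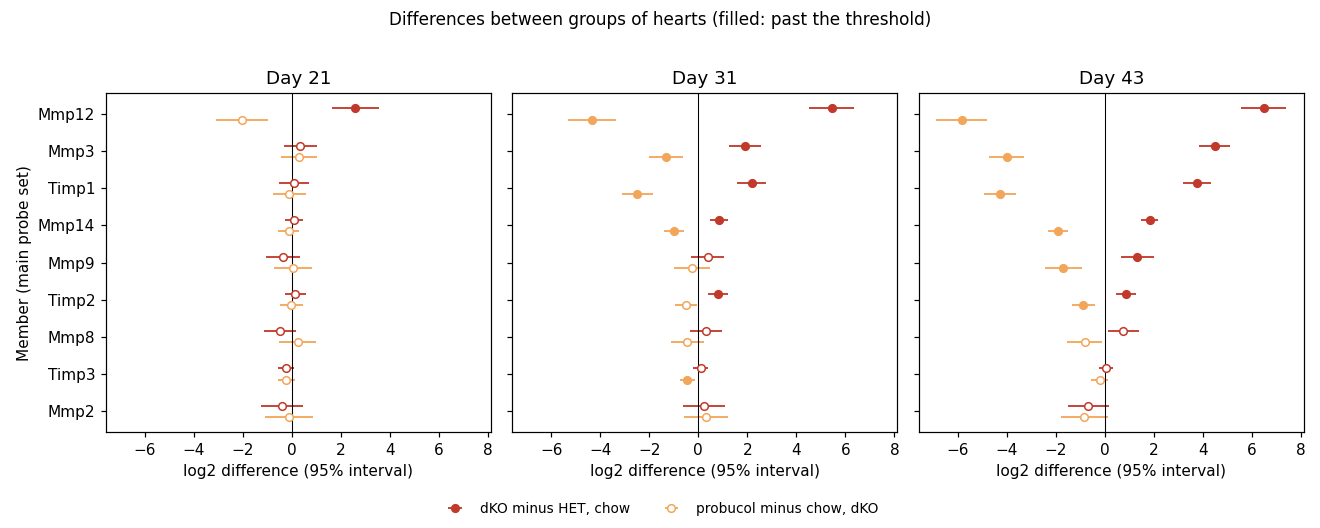
Log2 differences with 95% intervals for the main probe set of each of the 9 members at 21, 31 and 43 days, dKO minus HET on chow in red and probucol minus chow in dKO hearts in orange, filled where the adjusted p passed. The 2 comparisons share the dKO chow hearts, and the filled points grow from 1 red point at 21 days to 6 red and 6 orange points at 43 days.

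Ordered by group mean, Mmp12 was highest in dKO chow hearts at 43, 31 and 21 days, where the means were 10.35 ± 0.43 (SD, n = 12) at 43 days, 8.65 ± 0.69 (SD, n = 10) at 31 days and 5.94 ± 0.98 (SD, n = 10) at 21 days. The next group, HET probucol at 43 days, had 5.18 ± 0.16 (SD, n = 2), within the spread of the dKO chow hearts at 21 days. Timp1, Mmp14, Mmp3 and Timp2 were highest in dKO chow hearts at 43 and then at 31 days. For Timp2 these 2 ages, 8.08 ± 0.75 (SD, n = 12) and 7.81 ± 0.51 (SD, n = 10), did not differ beyond their spread (0.27 ± 0.20, adjusted p = 0.424). The main Mmp2 probe set was instead highest in HET chow hearts at 43 days, at 4.47 ± 0.70 (SD, n = 9), followed within that spread by HET probucol hearts at 31 days. The second Mmp2 probe set did not share this order. It was highest in dKO probucol hearts at 43 days, at 3.63 ± 0.79 (SD, n = 6), against 3.15 ± 1.23 (SD, n = 9) in HET chow hearts at 43 days.

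Whether the members followed each other across hearts of 1 group was also examined. Of 16 correlations of Timp1 with another member within the dKO chow hearts at 31 days (n = 10) or 43 days (n = 12), 0 passed by Pearson's r after adjustment in a two-sided permutation test. At 43 days Timp1 and Mmp14 had r = 0.53 (permutation p = 0.0593, adjusted p = 0.19) and rho = 0.80 (permutation p = 0.00269, adjusted p = 0.0430). Without the 2 hearts farthest from the median Timp1, r was 0.62, and on median-centred arrays it was 0.17. Timp1 and Mmp3 at 43 days had r = 0.63 (permutation p = 0.031, adjusted p = 0.19) and rho = 0.66 (permutation p = 0.0222, adjusted p = 0.0957), with r = 0.49 without those hearts. At 31 days this pair had r = 0.51, and -0.35 without the 2 farthest hearts of that group. The largest r of the 16 was that of Timp1 and Timp2 at 31 days, 0.68 (permutation p = 0.0329, adjusted p = 0.19). At 43 days Timp1 and Timp2 had r = 0.45 and rho = 0.70 (permutation p = 0.0141, adjusted p = 0.0957).

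Other proteases and their partners were counted from lists at 43 days on chow, where 25.5% of all probe sets rose. After median centring 1531 of all 10833 probe sets rose and 2767 fell. Of 7 other metalloproteinases on the array 1 rose (after median centring 1 rose and 3 fell), the collagenase Mmp13 (1.86 ± 0.40, adjusted p = 8.36e-05), and Mmp24, Mmp11 and Mmp17 gave -0.38, 0.48 and 0.44 and did not pass. Of 8 ADAM and ADAMTS proteases 6 rose, led by Adam8, a leukocyte sheddase (5.29 ± 0.35), Adam9 (1.87), Adam15 (0.85) and Adam10 (1.04). Of 7 genes for cathepsins, which are lysosomal proteases, and their inhibitor cystatin C, 6 rose, with Ctss at 4.40, Ctsb at 1.85, Ctsz at 2.24 and Ctsl at 1.49. The median difference was -0.08 for the other metalloproteinases, 1.24 for the ADAM and ADAMTS genes and 1.49 for the cathepsins, against 0.17 over all probe sets.

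Genes that activate or clear metalloproteinases and their substrates also moved. Of 12 genes of plasminogen activation and of the activation or removal of metalloproteinases, 7 rose and 1 fell at 43 days. Plat, the tissue plasminogen activator, rose by 1.73, Lrp1, an endocytic receptor that clears protease complexes, by 1.25, Serpinf1 by 1.63 and Plaur, the urokinase receptor, by 2.53. The 1 that fell, named after its value was seen, was Bsg, a membrane protein that induces metalloproteinases (-0.42 ± 0.09, adjusted p = 7.37e-05). Of 11 matrix substrates 9 rose, with the fibrillar collagens Col3a1 at 2.63 and Col1a1 at 2.49, the proteoglycan Bgn at 1.65 and fibronectin, Fn1, at 1.62. With probucol in dKO hearts at 43 days, 1 other metalloproteinase, 6 ADAM and ADAMTS genes, 8 of the plasminogen list, 7 of the cathepsin list and 9 substrates fell. In that comparison 24.4% of all probe sets fell.

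Markers of cell types were counted in the same way. At 43 days on chow 12 of 12 macrophage markers, 5 of 10 neutrophil markers and 6 of 8 fibroblast markers were higher in dKO hearts, and 5 of 7 cardiomyocyte markers were lower. At 31 days these counts were 10, 4, 2 and 3, and at 21 days 4, 0, 0 and 0, with 1 fibroblast marker lower. Of all probe sets, 25.5% rose and 7.69% fell at 43 days, 14.2% and 2.15% at 31 days, and 0.406% and 0.978% at 21 days. The fibroblast count at 31 days, 2 of 8, was near that share. Col1a1, Col1a2 and Dcn stand both in the fibroblast list and in the list of matrix substrates, so those counts are not separate. After median centring the 43-day counts were 11, 2, 3 and 7, where 1531 of all 10833 probe sets rose and 2767 fell. The neutrophil markers were S100a8 (3.43), S100a9 (4.12), Camp (1.06), Csf3r (0.79) and Ly6g (0.87), while Ltf, Mpo, Elane, Ngp and Cxcr2 gave -0.55, 0.44, -0.16, 0.19 and 0.14 and did not pass. After median centring 1 neutrophil marker and 1 fibroblast marker were lower at 43 days. The cardiomyocyte markers were Tnni3 (-0.56), Myl3 (-0.50), Myh6 (-0.56), Ryr2 (-0.53) and Myl2 (-0.17). Of 6 endothelial markers 2 rose, of 4 smooth muscle markers 1 rose and 1 fell, of 6 T and B cell markers 1 fell, and both erythroid markers rose. The endothelial and smooth muscle rises were near the share of all probe sets. The summed macrophage marker signal, not log2, was 1990 to 3326 in HET and 2387 to 3708 in dKO chow hearts at 21 days, 2601 to 4563 and 6419 to 12451 at 31 days, and 2258 to 4890 and 9750 to 21524 at 43 days. In dKO hearts on probucol it was 2882 to 3492 at 43 days. The summed neutrophil signal at 43 days was 255 to 1083 in HET chow, 693 to 2219 in dKO chow and 412 to 552 in dKO probucol hearts, and the summed fibroblast signal 5755 to 8106, 10952 to 16771 and 5301 to 6765. No macrophage, neutrophil, fibroblast or cardiomyocyte marker was at the floor in all hearts of a group. The part of these cells in the members' differences was not tested.

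Genes with the most similar pattern were found by Pearson correlation of the 12 group means, as a description over groups that share the same hearts. For Mmp12 they were Mpeg1 (0.97), Capg (0.97) and Hmox1 (0.97), and for Timp1 they were Laptm5 (0.99), C1qa (0.99) and C1qc (0.98). For Mmp14 they were Tyrobp (0.99), Ctsc (0.98) and Lrp10 (0.98), and for Mmp3 they were Hif1a (0.98), Atp1b3 (0.98) and Uso1 (0.98). Mmp9 was nearest to Cybc1 (0.97), Zfp53 (0.96) and Csf3r (0.96), and Mmp8 to Hsd11b1 (0.98), Snx5 (0.97) and Plcg2 (0.96). Timp2 was nearest to Foxm1 (0.98), Jak3 (0.98) and Apoc1 (0.97), and Mmp2 to Meis3 (0.94), Nr0b1 (0.93) and Serpinf2 (0.91). The group means of Timp3 spanned less than 1 log2 unit, and no partner was sought for it.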

How the data were processed

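The authors deposited linear signal intensities of 12488 probe sets on 88 arrays. The submitters' processing notes name MAS5 without a version, and how arrays were scaled is not stated in those notes. Groups came from genotype, age and diet in the labels. Of the probe sets, 10833 had 1 symbol in the platform annotation, 396 had several and 1193 that are no controls had none; control probe sets were left out. Each signal was raised to the 10th percentile of all values (4.22) and turned into log2, with no rescaling and no filter. limma 3.58.1 in R 4.3.3 fitted 12 group means to all arrays, with an intensity trend, 24 contrasts and Benjamini-Hochberg adjustment within each. The number of arrays limits the precision. Same-numbered replicates of 2 groups did not deviate together (median correlations of residuals from -0.08 to 0.04), so numbers were not used as pairs. Named genes were all members, Scarb1, up to 4 of each protease and substrate list with the smallest p at 43 days, and the 3 nearest genes by group means. The members, lists and tests were chosen with earlier results of these data known. Cell markers were summed on the linear scale. Permutation tests used 100000 resamples. Promoters are RefSeq's, GRCm38.p6. The limma script was tested on simulated data. Alternatives were quantile normalization, median centring, other floors, a filter, the replicate number, array set or actin ratio in the fit, no trend, array weights, fewer groups and single hearts left out; the array set as a block on the deposited scale was added after seeing the data.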

Additional observations from a re-analysis of the deposited data

Results flagged for a closer look

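Among 72 pairs of a member and a group of 4 to 10 hearts, 7 single hearts stood far from the rest of their group by Dixon's test, where chance gives about 1 in 20. Mmp9 was high in 3 of them, at 4.88 in dKO chow replicate 6 at 31 days (next 3.63), 4.60 in HET chow replicate 2 at 21 days (next 2.78) and 4.36 in HET chow replicate 7 at 31 days (next 3.02). Mmp8 was high at 4.40 in dKO probucol replicate 4 at 21 days (next 2.91). Mmp3 was low at 2.58 in HET chow replicate 4 at 43 days (next 3.98). Timp3 was low at 8.84 in HET chow replicate 4 at 31 days (next 9.33) and at 9.03 in HET chow replicate 3 at 43 days (next 9.78).

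Differences between groups in the same contrast passed for 19 member probe sets and contrasts by an interaction term in limma. Of all probe sets, 13% passed as a rise of the genotype difference from 21 to 31 days and 4.02% from 31 to 43 days. For the probucol interaction, 4.75% passed as a fall at 31 days and 7.86% at 43 days. The genotype difference on chow grew from 21 to 31 days by 2.84 and 2.60 for the 2 Mmp12 probe sets, 2.10 for Timp1, 1.55 for Mmp3 and 0.76 for Mmp14. After median centring Mmp3 gave 1.02 (adjusted p = 0.086) and Mmp14 0.23 (adjusted p = 0.487), and neither passed. Nor did Mmp3 after quantile normalization (0.73, adjusted p = 0.309), or Mmp14 without dKO chow replicate 2 at 21 days (0.74, adjusted p = 0.0601). From 31 to 43 days it grew by 2.59 for Mmp3, 1.60 for Timp1 and 0.98 for Mmp14. The change with probucol, dKO minus HET, was -5.04 and -4.60 for Mmp12, -2.88 for Timp1 and -1.94 for Mmp3 at 31 days. At 43 days it was -7.15 and -5.50 for Mmp12, -4.51 for Timp1, -4.27 for Mmp3, -3.24 for the second Timp2 probe set, -2.04 for Mmp9 and -1.84 for Mmp14. That Timp2 value combined -1.47 with probucol in dKO hearts and 1.78 in HET hearts, where the change did not pass (adjusted p = 0.303). It rested on 2 HET probucol hearts, at 5.38 and 5.40, against a dKO chow mean of 5.01. The main Timp2 probe set did not pass (-1.03, adjusted p = 0.116).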

How the results depend on the processing

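No called member value reversed its direction under any alternative run. Of 68 called values, 55 passed after median centring, 56 after quantile normalization and 66 with the replicate block, where Timp3 with probucol at 31 days (-0.41, adjusted p = 0.0765) and the Mmp9 probucol interaction at 43 days (-1.74, adjusted p = 0.105) did not pass. Of 318 counts of member probe sets under alternatives, 292 stayed within 1.5 times the main count, though not always with the same members. At 43 days, where centred arrays gave 1531 rises and 2767 falls over all 10833 probe sets, the genotype count stayed at 9 after median centring. It then lacked the second Mmp9 probe set (0.64, adjusted p = 0.0622) and held the main Mmp2 probe set as lower (-1.02, adjusted p = 0.0359). The other 26 were as follows, and where no construction explains it the cause was not tested. With the brighter 60% and 1 probe set per gene, 6 members are tested, and Mmp3 and Mmp12 pass this filter with their high dKO chow hearts counted in. The genotype count was then 1 at 21 days and 5 at 43 days, and the probucol count in dKO hearts at 43 days was 5. The dKO age steps had 5 and 4, and the probucol interaction at 43 days had 4. With only the groups compared, 1 passed for genotype at 21 days. For probucol in dKO hearts at 21 days, 1 passed after median centring, with the floor at the 30th percentile or with array weights, and 2 with centred arrays and a block for the array set. For dKO hearts from 21 to 31 days the count was 5 after quantile normalization or median centring, 6 with the higher floor, 4 with centring and that block together and 6 with the block alone. The matching interaction had 3, 3, 8 with no floor, 1 and 2, and that from 31 to 43 days 5 with the higher floor or with array weights. Array weights gave 1 for the HET step from 21 to 31 days, and the higher floor gave 1 for probucol in HET hearts and for genotype on probucol at 43 days. Leaving out single hearts kept the counts between 0 and 10, with 4 for the genotype by age interaction from 21 to 31 days, 3 for the probucol interaction at 31 days and 5 to 6 for that at 43 days. The dim probe sets of Mmp2, Mmp8 and Mmp9 limit what can be seen near the floor.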
